A study of Mus musculus with 2 samples.

Results

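The 36 genes described here encode the machinery that copies chromosomal DNA during S phase, from the factors that load the replicative helicase to the enzymes that make deoxynucleotides. They form a named list to which no threshold on a measured value was applied, and all 36 were found by symbol among the 27999 features of the 2 deposited count tables. The tables came from single-cell RNA sequencing of P0 (newborn) mouse whole heart on a C57BL6+ICR background, with no treatment and no genetic change named in the labels. Minced hearts had been dissociated with trypsin, and cells had been captured with droplet reagents that read the 3′ end of polyadenylated RNA. The series set out to map the cell types of the newborn heart as a reference from which transcription factors for cell conversion were picked. Both libraries were technical replicates of 1 biological sample, and the labels used here do not say how many hearts it held. No difference between conditions could be tested, intervals are 95% intervals that cover counting error only, and agreement of the 2 replicates speaks to library preparation and sampling, not to variation between animals.

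Replication starts at origins, where Cdc6 and Cdt1 load the ring of Mcm2 to Mcm7 around DNA and geminin (Gmnn) blocks reloading until the next cycle. Mcm10, Cdc45 and the GINS complex turn the ring into an active helicase, the polymerases copy the strands while held by the sliding clamp Pcna, and Fen1 and Lig1 trim and seal the fragments of the lagging strand. Transcripts of most of these genes are made under E2F factors at the entry into S phase, so their summed level is widely read as a sign of cycling. Mouse cardiomyocytes are known to pass through a last round of DNA synthesis in the first days after birth, in which many copy their DNA and divide the nucleus without dividing the cell.

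Promoter sequences were examined for E2F sites because transcripts of most of these genes are made under E2F factors. Such sites were not used to choose the list. The 250 bases upstream of the RefSeq start site (GRCm38.p6) were searched on both strands for the 8-base E2F sites TTTCCCGC, TTTCGCGC, TTTGCCGC and TTTGGCGC, for the CCAAT box and for TTTGAA, the core of the cell cycle homology region of mitotic promoters. The sequence table held 29 of the 36 genes. An E2F site was present in 7 of these 29 promoters (24.1%: Cdc6, Mcm5, Mcm6, Mcm7, Pola1, Rfc3 and Uhrf1), against 583 of 27025 promoters in the whole table (2.16%) and 0 of 23 promoters of a list of mitosis genes. A CCAAT box was present in 16 of 29 (55.2%, against 37.5% of all promoters and 82.6% of the mitosis list). TTTGAA was present in 3 of 29 (10.3%, against 18.3% of all and 34.8% of the mitosis list). A match is a description of letters in this window and does not show binding. The last 160 bases upstream of the start are printed for 5 genes whose stretch lies outside the annotated gene. Mcm5 and Mcm6 are shown because both hold E2F sites, and Rrm1, Tyms and Slbp because the results below turn on their levels and none of the 3 holds a site in this stretch. Capitals mark E2F sites and CCAAT boxes in either orientation, and overlapping sites run together.
Mcm5, chr8:75109349-75109508, plus strand: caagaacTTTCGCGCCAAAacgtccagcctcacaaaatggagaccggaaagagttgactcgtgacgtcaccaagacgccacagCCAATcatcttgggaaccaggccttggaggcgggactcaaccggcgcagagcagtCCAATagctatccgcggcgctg
Mcm6, chr1:128359706-128359865, minus strand: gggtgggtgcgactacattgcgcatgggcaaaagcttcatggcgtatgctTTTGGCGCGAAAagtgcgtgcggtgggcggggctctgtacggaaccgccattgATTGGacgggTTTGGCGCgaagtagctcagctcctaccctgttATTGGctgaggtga
Rrm1, chr7:102441535-102441694, plus strand: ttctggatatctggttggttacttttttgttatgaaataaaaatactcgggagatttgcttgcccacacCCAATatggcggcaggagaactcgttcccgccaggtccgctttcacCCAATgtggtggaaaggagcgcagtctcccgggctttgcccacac
Tyms, chr5:30073626-30073785, minus strand: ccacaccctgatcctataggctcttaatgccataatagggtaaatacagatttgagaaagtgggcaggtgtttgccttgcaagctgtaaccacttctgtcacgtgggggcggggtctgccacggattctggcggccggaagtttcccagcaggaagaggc
Slbp, chr5:33652575-33652734, minus strand: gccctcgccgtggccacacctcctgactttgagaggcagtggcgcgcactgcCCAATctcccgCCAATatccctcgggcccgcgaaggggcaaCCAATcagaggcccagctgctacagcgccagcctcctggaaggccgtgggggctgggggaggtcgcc

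Of 11935 barcodes deposited, 8478 had at least 500 genes, haemoglobin transcripts under 0.5% of counts and at least 2000 counts (4537 and 3941 in technical replicates 1 and 2, median 5929 and 6124 counts). Marker genes sorted them into 3940 ventricular and 1419 atrial cardiomyocyte barcodes, 1077 fibroblast, 688 vascular endothelial, 178 endocardial, 192 smooth muscle, 233 pericyte and 150 macrophage barcodes. The classes were gated on these marker sums, so the sums describe the gates and do not test the names: the cardiomyocyte list averaged 46.9 counts per 2000 in ventricular and 43.5 in atrial barcodes against 1.71 to 3.59 in the other classes, the ventricular list 27.8 against 2.18 in atrial, and the atrial list 68.1 against 0.756 in ventricular barcodes. Every barcode was thinned at random to 2000 counts. Mitochondrial transcripts made up a median of 41.0% of counts in ventricular, 21.6% in atrial and 3.14% to 5.44% in the other 6 classes. All levels are therefore given on 2 scales, in CPM, counts of a gene per 1000000 counts, of all counts and of nuclear counts, for which mitochondrial and haemoglobin genes were removed before thinning to 2000. On the nuclear scale 3279 ventricular barcodes were deep enough.

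The summed level of the replication genes was lowest in the 2 cardiomyocyte classes on the all-count scale, and the order of those classes depended on the scale. Ventricular barcodes held 516 CPM (interval 500.0 to 532; 541 and 486 in the technical replicates) and atrial barcodes 609.6 CPM (581 to 639; 607 and 613). On the nuclear scale the ventricular sum was 861 CPM (897 and 821) and the atrial sum 821 CPM (826 and 815). Neither order can be separated from the mitochondrial share, which differed between the same classes.

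Endocardial barcodes, which line the heart chambers, held 733 CPM (732 and 735) on all counts and 701 CPM (755 and 640.2) on nuclear counts, the lowest sum of the 8 classes on the nuclear scale. Fibroblasts held 1192 CPM (1260 and 1113; nuclear 1235) and smooth muscle 1299 CPM (1355 and 1226; nuclear 1362). Macrophages held 1547 CPM (1704 and 1385; nuclear 1479) and vascular endothelium 1552 CPM (1580 and 1523; nuclear 1629). Pericytes, the mural cells of capillaries, held 1738 CPM (1616 and 1889; nuclear 1882, with 1792 and 1990). On all counts the replicate values of macrophages overlapped those of pericytes and of vascular endothelium, so macrophages could not be ordered against them. Both pericyte replicates lay above the vascular endothelial ones on this scale. On nuclear counts both pericyte replicates lay above those of the other classes.

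**Figure D1:**
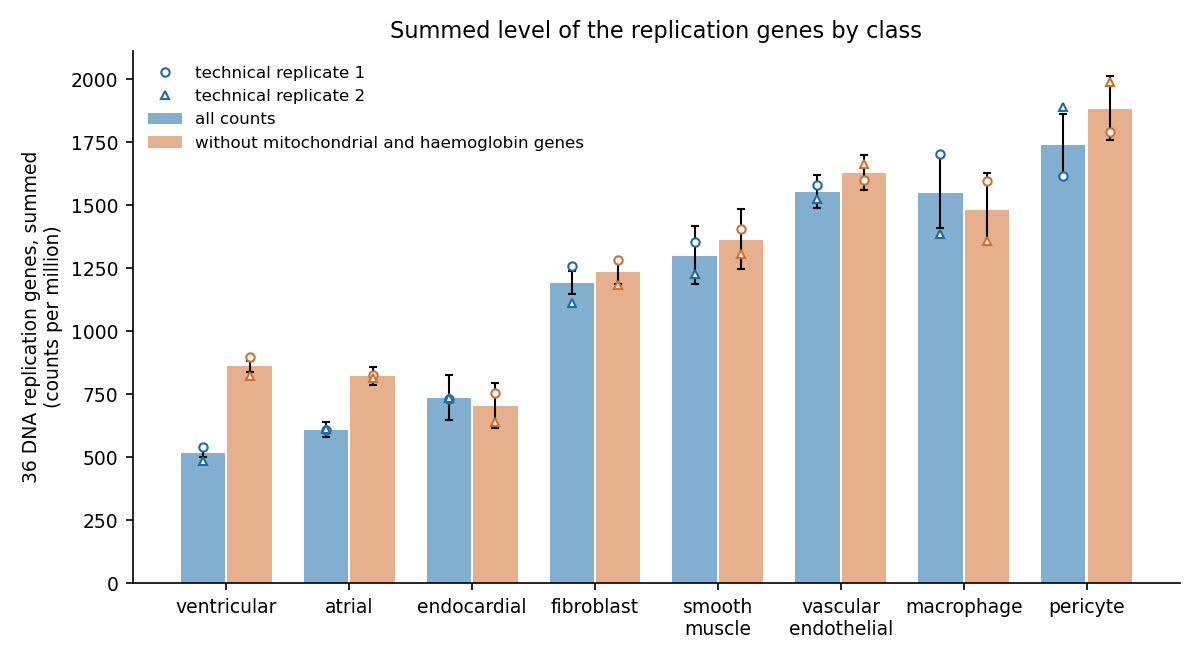
Summed level of the 36 replication genes in each class, in CPM, on all counts (blue) and without mitochondrial and haemoglobin genes (orange). Bars are both technical replicates together, error bars are exact 95% Poisson intervals for counting error, and circles and triangles are the technical replicates. Ventricular and atrial bars change order between the scales (516 and 609.6 CPM; 861 and 821 CPM), and both lie below all bars from fibroblast to pericyte on either scale.

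On all counts the highest class was pericyte for 18 genes, macrophage for 10, vascular endothelial for 6 and smooth muscle for 2, and the lowest was ventricular for 19, endocardial for 13, atrial for 3 and smooth muscle for 1. On nuclear counts the ventricular class was highest for 2 genes, Rrm1 and Rrm2, and lowest for 12, while endocardial was lowest for 17 and atrial for 6. Neither first place was clear. Ventricular Rrm1 stood at 62.4 CPM against 59.2 in pericytes. Rrm2 stood at 98.4 CPM against 82.2 in vascular endothelium, where the replicate values overlapped. The smaller classes were thinly counted: 32 of 36 genes had under 20 thinned counts in endocardial, 28 in smooth muscle, 27 in macrophage and 18 in pericyte barcodes. Mcm10, Cdc45, Cdc6, Pole and Ccne1 had 0 counts in endocardial barcodes, which allows a level of up to 8.43 CPM, and Cdc6 had 0 in smooth muscle, which allows up to 7.81 CPM.

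The composition of the sum also differed between classes. Nucleotide-supply genes (Rrm1, Rrm2, Tyms, Tk1 and Dut) made up 39.9% of the sum in ventricular and 33.6% in atrial barcodes, against 28.5% in vascular endothelium, 27.3% in smooth muscle, 27.2% in endocardium, 23.8% in fibroblasts, 23.3% in pericytes and 19.2% in macrophages. On nuclear counts the same share was 36.6% in ventricular, 34.6% in atrial and 23.1% in fibroblast barcodes. The histone and chromatin genes (Slbp, Uhrf1 and Chaf1b) made up 7.85% in ventricular and 7.69% in atrial barcodes, against 11.2% in macrophages, 11.9% in endocardium and up to 17.3% in pericytes. On nuclear counts the endocardial share (9.84%) was nearer the ventricular one (8.50%). In the 52 epicardial barcodes (19 and 33 in the technical replicates) nucleotide-supply genes made up 32.3% and histone and chromatin genes 6.45% of the sum. On nuclear counts these shares were 36.4% and 7.95%. They rest on very few counts, so whether these barcodes resemble cardiomyocytes in this respect cannot be judged.

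Fewer cardiomyocyte barcodes than other barcodes held several counts of the 36 genes at equal depth on the all-count scale. At least 3 counts were present in 11.02% of ventricular barcodes (Clopper-Pearson interval 10.1 to 12.0; 12.3 and 9.51 in the technical replicates) and in 12.7% of atrial barcodes (11 to 14.5; 12.1 and 13.4). The share was 28.6% in fibroblasts (25.9 to 31.4), 44.0% in vascular endothelium (43.4 and 44.7), 38.6% in pericytes, 33.3% in macrophages (27.6 and 39.2), 29.7% in smooth muscle and 18.0% in endocardium. On nuclear counts it was 18.1% in ventricular and 17.9% in atrial barcodes, still below 31.1% in fibroblasts and 43.4% in vascular endothelium. The remaining classes are not given here on nuclear counts, among them endocardium, whose summed level was the lowest on that scale. The nuclear comparison therefore covers fibroblasts and vascular endothelium only. Without thinning, at median depths of 6399 counts in ventricular, 5756 in atrial, 5727 in fibroblast and 9187 in vascular endothelial barcodes, the shares were 34.3%, 40.4%, 61.4% and 80.2%. No class of the heart is known to lack these genes, so no background share from free RNA could be given.

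Among barcodes with at least 3 counts the mean was 5.21 counts in ventricular and 5.38 in atrial barcodes, 5.91 in vascular endothelium, 6.25 in fibroblasts, 7.53 in pericytes and 7.62 in macrophages. These barcodes held 55.7% of all counts of the 36 genes in the ventricular class and 83.9% in the vascular endothelial class. No count of any of the 36 genes was present in 52.9% of ventricular, 27.0% of fibroblast and 20.1% of vascular endothelial barcodes.

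**Figure D2:**
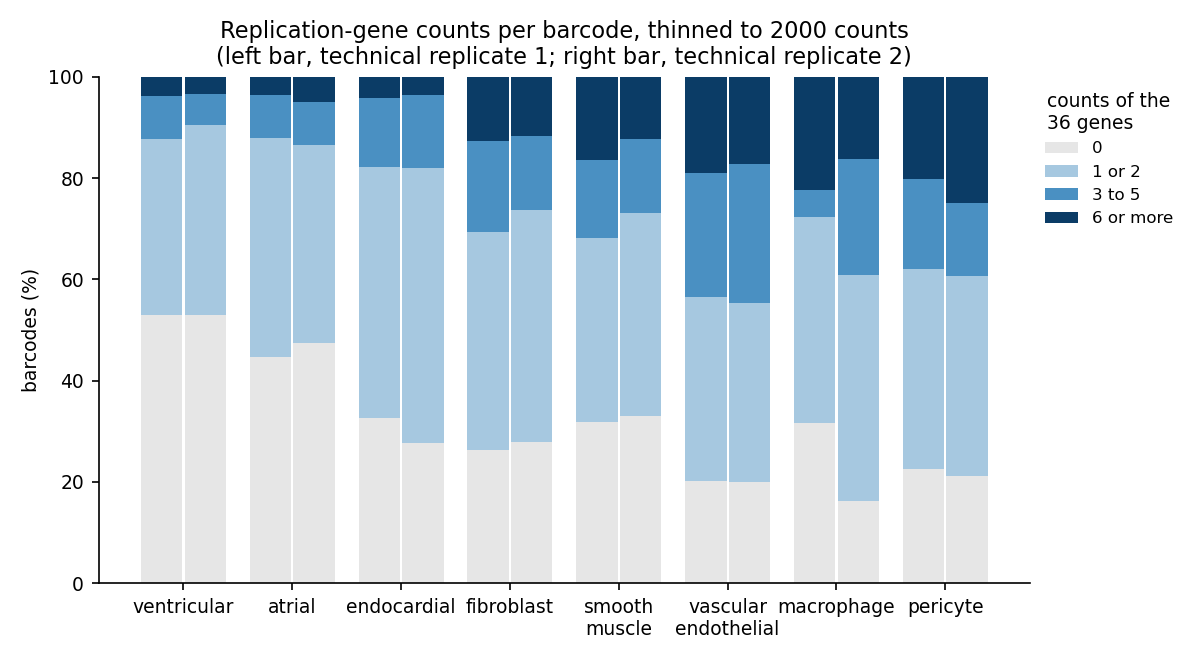
Percent of barcodes in each class with 0, 1 or 2, 3 to 5, and 6 or more counts of the 36 genes after thinning to 2000 counts. The left bar of each pair is technical replicate 1 and the right bar technical replicate 2. The replicates resemble each other except in macrophages, where the share with at least 3 counts is 27.6% and 39.2%.

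Gene by gene, ventricular and atrial barcodes differed in few replication genes once both scales were considered. A gene was counted as past the size rule when the ratio was at least 1.5-fold in the same direction in both technical replicates and both classes together held at least 20 counts. On all counts 1 of 35 genes was higher in ventricular barcodes and 4 were lower (Tyms, Pole, Rfc2 and Tk1), where 3.93% of all genes tested were higher and 21.2% lower. Rfc2 and Tk1 turned to ratios of 1.26 and 1.249 among barcodes with up to 20% mitochondrial counts, and a second random draw of the thinning gave 8 genes lower. Pole rested on 18 ventricular and 11 atrial counts, and its ratio ran from 0.496 to 4.25 over the alternative settings, so its direction is not settled. The median ratio was 0.716 over the replication genes and 0.764 over all genes. On nuclear counts 1 of 36 was higher and 2 were lower (Tyms and Rpa2), against 7.59% and 10.1% of all genes, and the median ratio was 0.992 against 0.967. Without thinning, 1 gene was higher and 5 lower of 36 on all counts (Tyms, Fen1, Mcm5, Mcm3 and Rfc5; 4.14% and 23% of all genes) and 1 was higher and 1 lower on nuclear counts (8.02% and 10.6%). On each of these 4 scales the genes lower were thus a share under that of all genes. Thinning to a greater depth gave 8 genes lower, as did the second draw. The share of all genes was computed in neither setting, so these counts cannot be read against one. Of the 36 genes, 26 passed the rule on none of the 4 scales.

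Gmnn (ENSMUSG00000006715, chr13:24751845-24761923, minus strand) was the 1 gene higher in ventricular barcodes on all 4 scales. On nuclear counts it stood at 49.7 and 52.6 CPM in the ventricular technical replicates and at 20.9 and 15.5 CPM in the atrial ones. The replicate values did not overlap, and the ratio was 2.78 (2.05 to 3.84; 2.37 and 3.39 by replicate). On all counts the levels were 28.5 and 26.9 against 15.1 and 15.2 CPM, a ratio of 1.83 (1.32 to 2.61). Among barcodes with up to 20% mitochondrial counts the ratio on all counts was 4.25 (2.45 to 7.70). Ventricular Gmnn was also 4.44 times the endocardial level on nuclear counts, but 0.851 times the vascular endothelial and 0.644 times the macrophage level.

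Tyms (ENSMUSG00000025747, chr5:30058202-30073617, minus strand), the enzyme that makes thymidylate from deoxyuridylate, was the 1 gene lower in ventricular barcodes on all 4 scales. On nuclear counts it stood at 15.3 and 11.1 CPM in ventricular and at 32.5 and 35.9 CPM in atrial barcodes, a ratio of 0.389 (0.286 to 0.529). On all counts the values were 10.1 and 7.97 against 24.2 and 25.9 CPM, a ratio of 0.365 (0.260 to 0.514; 0.418 and 0.308). The ventricular replicates lay below the atrial ones on both scales. Among the 416 ventricular and 589 atrial barcodes with up to 20% mitochondrial counts the ratio was 0.781 (0.396 to 1.49), an interval that includes 1. This limit keeps a small part of the ventricular class and does not match the classes, as the median mitochondrial share left was 5.12% in ventricular and 15.3% in atrial barcodes.

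Of the other nucleotide-supply genes, Tk1 was lower in ventricular barcodes on all counts alone, and Rrm1, Rrm2 and Dut were lower on none of the 4 scales by the size rule. Rrm2, the small subunit of ribonucleotide reductase that limits deoxynucleotide synthesis in S phase, stood at 112 and 83.7 CPM in ventricular and at 65.7 and 65.4 CPM in atrial barcodes on nuclear counts, a ratio of 1.501. Its unthinned nuclear ratio was 1.57 (1.42 to 1.73), with 1.82 and 1.33 by replicate, so that only technical replicate 1 reached 1.5-fold. Rrm1, the large subunit of the same enzyme, stood at 66.1 and 58.3 against 47.6 and 41.7 CPM, a nuclear ratio of 1.39 (unthinned nuclear 1.41, interval 1.24 to 1.59). For both genes the ventricular values lay above the atrial ones in either replicate without passing the rule. Dut, which keeps uracil out of DNA by breaking down its nucleotide, stood at 124 and 128 against 123 and 122 CPM. Tk1, thymidine kinase of the salvage route, stood at 9.67 and 7.42 against 15.1 and 13.0 CPM on all counts, a ratio of 0.612 (0.408 to 0.929; 0.641 and 0.573). On nuclear counts it stood at 15.3 and 14.3 against 15.2 and 20.4 CPM, and these values overlapped.

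The direction of the summed list between ventricular and atrial barcodes moved with the mitochondrial share. The ratio was 0.846 (0.800 to 0.896; 0.892 and 0.793) on all counts and 1.05 (0.997 to 1.10; 1.09 and 1.007) on nuclear counts. Among barcodes with under 20% mitochondrial counts it was 1.23 (1.10 to 1.38), between 20% and 40% it was 0.778 (0.718 to 0.844; 1405 ventricular and 743 atrial barcodes), and between 40% and 60% it was 1.19 (0.919 to 1.57) over 1865 ventricular and 70 atrial barcodes. On nuclear counts these bands gave 1.23, 0.793 and 1.04. In the lowest band the ventricular technical replicates stood at 793 and 578 CPM on all counts, against 570 and 550 in atrial barcodes. On nuclear counts they stood at 972 and 628 against 672 and 639 CPM, so technical replicate 2 did not share the higher ventricular sum. Between 20% and 40% both ventricular replicates (529 and 518 CPM) lay below the atrial ones (650 and 700) on all counts. Above 60% the ratio was 1.09 (0.556 to 2.42) over 254 ventricular and 17 atrial barcodes, and on nuclear counts 5.5 (1.499 to 45.8) over 90 and 6 barcodes. What part the mitochondrial share has in these ratios was not tested.

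**Figure D3:**
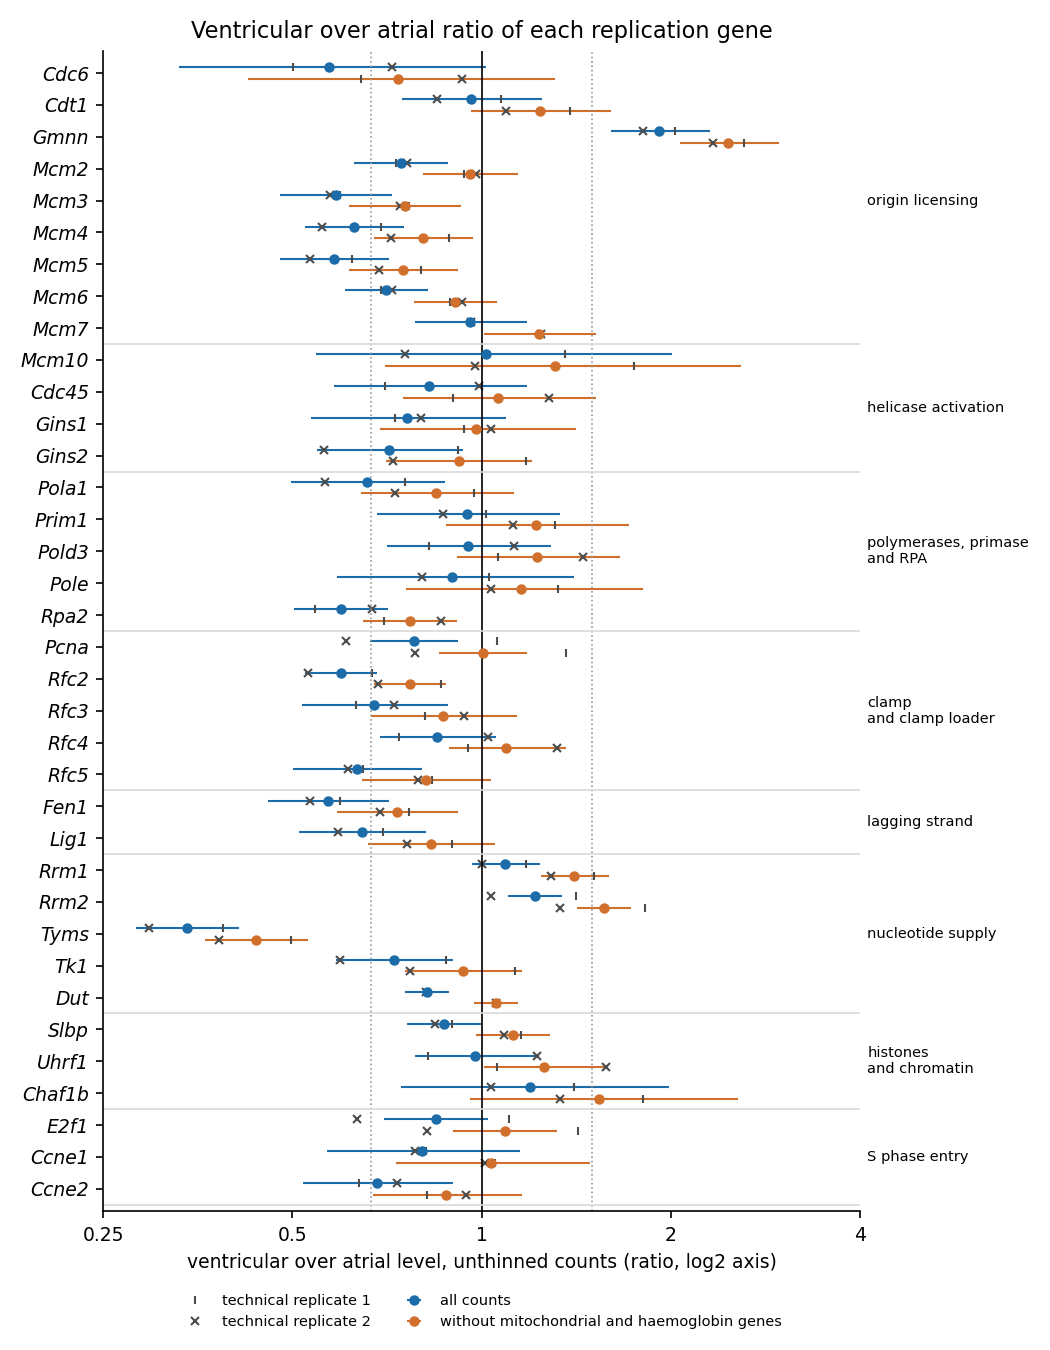
Ventricular over atrial ratio of each of the 36 genes from unthinned counts, on a log2 axis, on all counts (blue) and without mitochondrial and haemoglobin genes (orange), grouped by role. Lines are 95% intervals for counting error, ticks and crosses are the technical replicates, and dotted lines mark 1.5-fold. Gmnn lies to the right of 1.5 and Tyms to the left of the lower line on both scales, while most other genes move toward or past 1 when mitochondrial and haemoglobin genes are left out.

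On all counts most replication genes were lower in ventricular barcodes than in each non-myocyte class except endocardium, and fewer were lower on nuclear counts, where they were a majority against vascular endothelium, pericytes and macrophages alone. Against fibroblasts 28 of 36 genes were lower on all counts (49.1% of all genes) and 16 of 36 on nuclear counts (30% of all genes), while 1 was higher on either scale (14.3% and 24.6%). The median ratio over the replication genes was 0.372 on all counts and 0.569 on nuclear counts, against 0.581 and 0.918 over all genes. Against vascular endothelium 28 of 36 were lower on all counts (45.5%) and 19 of 36 on nuclear counts (28.6%), and none was higher (15.2% and 24.4%), with medians of 0.299 and 0.434 against 0.611 and 0.942. The share lower therefore stood above the share of all genes in both classes and on both scales.

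The same held for the smaller classes other than endocardium. Against pericytes 26 of 35 genes were lower on all counts (43.7%) and 21 of 35 on nuclear counts (27.4%), and 0 were higher (9.97% and 18.1%), with medians of 0.258 and 0.436 against 0.559 and 0.879 over all genes. Against macrophages 23 of 33 were lower (31.4%) and 18 of 35 on nuclear counts (20.6%), while 0 and 1 were higher (12.9% and 21.8%: Rrm2), with medians of 0.239 and 0.474 against 0.742 and 1.17. Against smooth muscle 21 of 34 were lower (37.5%) and 12 of 34 on nuclear counts (21.4%), while 0 and 2 were higher (9.24% and 18.2%: Rrm1 and Rrm2), with medians of 0.330 and 0.601 against 0.619 and 0.957. Against endocardium 13 of 33 were lower (43.3%) and 1 higher (8.84%: Rrm2) on all counts, and on nuclear counts 3 of 34 were lower (26.5%: Rfc3, Tyms and Chaf1b) and 4 higher (15.7%: Gmnn, Pcna, Rrm1 and Rrm2). In endocardium the share lower was thus near or under that of all genes, and the medians were 0.621 and 1.04 against 0.549 and 0.841.

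Atrial barcodes were also lower than non-myocytes in many of these genes, though not in every class. Against vascular endothelium 26 of 35 genes were lower in atrial barcodes on all counts (33.9% of all genes) and 22 of 35 on nuclear counts (26.7%). Against fibroblasts 20 of 34 were lower on all counts (35.9%) and 11 of 35 on nuclear counts (27%), the latter a share near that of all genes. None was higher against either class (21.1% and 27%; 19.3% and 25.1%). On all counts 21 of 31 genes were lower against pericytes (32.8%), 16 of 28 against macrophages (23.8%), 14 of 28 against smooth muscle (26%) and 5 of 28 against endocardium (31.3%), and on nuclear counts 21 of 32 (25.1%), 16 of 31 (19%), 11 of 31 (19.1%) and 4 of 31 (23.8%). Genes higher in atrial barcodes numbered 0 against pericytes (15.4% and 20.8%), macrophages (20.4% and 25.7%) and smooth muscle (14.8% and 20.9%) on either scale, and 1 on all counts and 2 on nuclear counts against endocardium (13% and 17.5%: Rrm2 on both, Rpa2 on nuclear counts). Ventricular and atrial ratios to a class share that class's barcodes and are not independent.

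Among the origin licensing genes, Mcm3 and Mcm5, subunits of the helicase ring, were lower in ventricular barcodes than in 4 of the 6 non-myocyte classes on nuclear counts and than in all 6 on all counts. Mcm3 stood at 19.99 and 15.5 CPM in the ventricular replicates on nuclear counts, against 67.0 and 60.2 in vascular endothelium and 32.4 and 46.5 in fibroblasts. Mcm5 stood at 19.7 and 14.9 CPM against 31.3 and 55.6 in vascular endothelium and 29.8 and 29.3 in fibroblasts. The ventricular values of both genes lay below those of these classes in either replicate. Mcm6 was lower than in 3 of the 6 classes and Mcm7 than in 3, while Mcm2 and Mcm4 were each lower than in 1. Cdt1 and Gmnn were lower than in none, and Cdc6 had enough counts in 2 classes and was lower in both.

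Of the helicase activators, Gins2 was lower than in 4 of 6 classes on nuclear counts, at 10.6 and 9.82 CPM in ventricular barcodes against 44.7 and 36.4 in fibroblasts and 31.3 and 44.8 in vascular endothelium. Mcm10 was lower in 2 of 4 classes with enough counts, Cdc45 in 1 and Gins1 in none. Among polymerase genes, Rpa2, which coats single-stranded DNA, stood at 22.6 and 20.6 CPM in ventricular barcodes against 58.4 and 44.8 in vascular endothelium, and Prim1, the primase subunit that starts each fragment, at 10.9 and 6.65 against 19.9 and 26.2. Pold3 was 0.333 and Pole 0.347 times the vascular endothelial level. Pola1, the catalytic subunit of the primase partner, was 0.702 times that level and passed the rule only against fibroblasts (0.519).

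Rfc3, a subunit of the loader that opens Pcna, was lower in ventricular barcodes than in all 6 non-myocyte classes on nuclear counts. It stood at 9.99 and 9.51 CPM in ventricular barcodes, close to 7.94 and 9.80 in atrial ones, against 46.4 and 41.4 in fibroblasts, 38.5 and 26.2 in vascular endothelium and 64.0 and 63.1 in pericytes. The ratio to the 6 classes ran from 0.153 to 0.367. Pcna itself, at 30.0 and 30.7 CPM, was lower only against pericytes (0.407) and higher against endocardium (1.76). Rfc2, Rfc4 and Rfc5 were lower against 3, 4 and 3 of the 6 classes.

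Lig1 (ENSMUSG00000056394, chr7:13277283-13311433, plus strand), which seals nicks between lagging-strand fragments, was lower than in 5 of the 6 classes. Ventricular barcodes held 11.8 and 12.4 CPM on nuclear counts, fibroblasts 62.2 and 27.3, vascular endothelium 71.2 and 60.2 and pericytes 72.0 and 112. The pericyte level was 7.46 times the ventricular one. Fen1, the flap endonuclease of the same pathway, was lower than in 3 classes, at 15.9 and 14.6 CPM against 42.7 and 50.9 in vascular endothelium. Summed, both genes were at 0.242 times the vascular endothelial level on nuclear counts, compared with 0.709 for the 5 nucleotide-supply genes.

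The nucleotide-supply genes split. Tyms was lower in ventricular barcodes than in all 6 classes on both scales, with nuclear ratios of 0.120 to 0.350. The vascular endothelial replicates stood at 104 and 117 CPM and were 8.32 times the ventricular level together, or 11.7 times on all counts. Tk1, at 15.3 and 14.3 CPM, was lower than in 4 classes on nuclear counts, among them vascular endothelium (105 and 57.1) and pericytes (88.0 and 141).

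Rrm2 ran the other way on nuclear counts, with a ventricular level above that of each of the 6 classes (ratios 1.20 to 5.70) and past the rule in 4 of them. The ventricular replicates stood at 112 and 83.7 CPM, against 47.3 and 36.4 in fibroblasts and 47.3 and 35.2 in macrophages, and against 72.6 and 92.6 in vascular endothelium, where the values overlapped. On all counts Rrm2 was higher than in 2 classes, fibroblasts (1.76) and endocardium (2.56), and lower than in none. Rrm1 was at 1.05 to 2.71 times the non-myocyte levels on nuclear counts and past the rule in 2 classes, and Dut was at 0.802 to 1.99 times and past it in none.

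Slbp, which binds the stem-loop of replication-dependent histone messengers, was lower than in 5 of the 6 classes on nuclear counts. It stood at 53.8 and 42.5 CPM in ventricular and 43.3 and 42.5 in atrial barcodes, against 138 and 141 in fibroblasts, 151 and 157 in vascular endothelium and 252 and 180 in pericytes, so that both cardiomyocyte classes lay below these classes. In endocardium it stood at 48.9 and 48.8 CPM, within the range of the ventricular replicates. Chaf1b, a subunit of the factor that places histones on new DNA, was lower than in 5 classes on nuclear counts (ratios 0.254 to 0.707 over all 6 classes). Uhrf1, which carries DNA methylation over to the new strand, was lower than in 3 classes.

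Of the S phase entry genes, the transcription factor E2f1 stood at 22.6 and 20.9 CPM in ventricular barcodes against 61.3 and 63.3 in vascular endothelium and 81.1 and 77.5 in macrophages, and was lower than in 4 classes on nuclear counts. The cyclins that drive the start of S phase showed less: Ccne1 was lower than in 0 classes and Ccne2 than in 1 on nuclear counts.

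For 13 of the genes, among them Mcm7, Gins2, Cdc45, Rfc2, Rfc4, Rfc5, Fen1, Lig1, Tk1 and Slbp, another gene overlaps on the opposite strand. Mcm7, Cdt1, Pola1, Pole, Rrm1 and Chaf1b overlap a gene model on the same strand, which for Pole includes a processed pseudogene. Pcna and Tyms have processed copies in the annotation. How reads shared with these were assigned was not given in the sources used here, and the levels of these genes are uncertain to that extent.

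**Figure D4:**
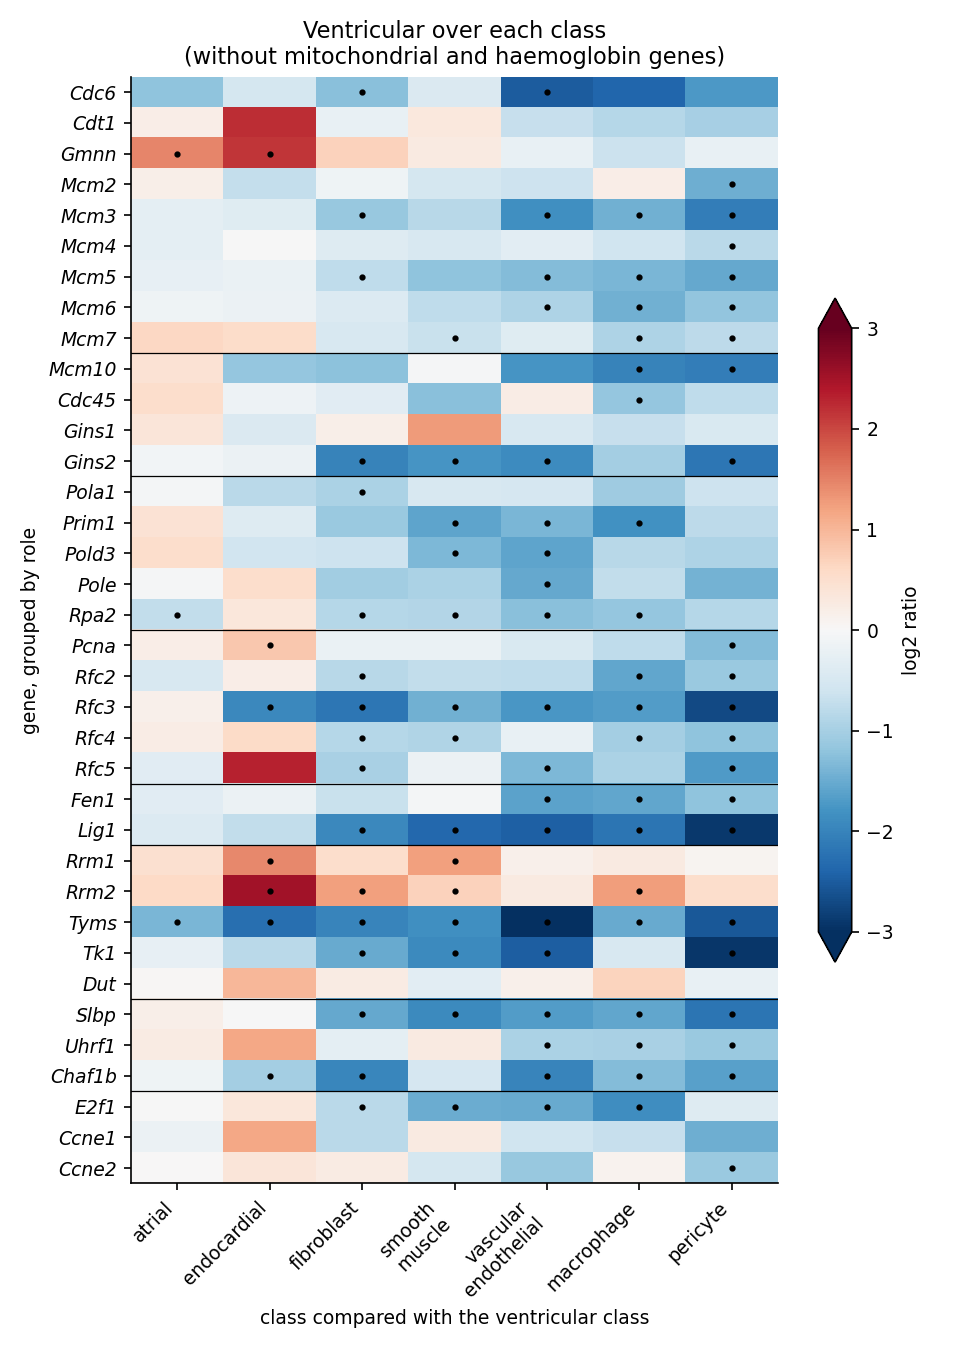
Log2 ratio of the ventricular level to that of each other class for the 36 genes, without mitochondrial and haemoglobin genes, with genes grouped by role and separated by lines. Dots mark ratios past the size rule in both technical replicates, and colours end at 3 in either direction. The row of Tyms is blue in every column (ratios below 1) and the rows of Rrm1 and Rrm2 are red in every column (ratios above 1).

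Counts of the 36 genes were set against a list of 25 mitosis genes to see where in the cycle they were found. A barcode with at least 2 counts of the mitosis list was called mitosis-positive. This held for 433 ventricular barcodes (10.99%), 149 atrial barcodes (10.5%), 22.9% of fibroblasts and 45.4% of vascular endothelial barcodes. The 36 genes summed to 1664 CPM in mitosis-positive ventricular barcodes and to 347 CPM in those with 0 mitosis counts, a ratio of 4.80 (4.48 to 5.13; 5.24 and 4.24 by replicate). The same ratio was 3.69 in atrial barcodes (3.45 and 3.98), 2.85 in fibroblasts (2.47 and 3.46) and 2.73 in vascular endothelium (3.18 and 2.34). Ventricular replicates lay above those of these 3 classes but overlapped those of smooth muscle (ratio 4.20; 3.65 and 5.18). Mitosis-positive ventricular barcodes were deeper before thinning (median 7317 against 6333 counts) and held fewer mitochondrial counts (36.6% against 42.0%). Of the mitosis-positive barcodes 374 were deep enough for nuclear counts, and of those with 0 mitosis counts 2520. Their nuclear levels were 2504 and 594 CPM. With mitosis-positive barcodes picked anew from nuclear counts the ratio was 4.33.

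Barcodes rich in replication-gene counts often carried no mitosis count. Of barcodes with at least 3 counts of the 36 genes, 41.0% had 0 mitosis counts in the ventricular class (41.0% in either replicate), 51.7% in the atrial class, 42.9% in fibroblasts and 22.1% in vascular endothelium. Ventricular barcodes with 0 mitosis counts were 77.4% of the class and held 52.0% of its counts of the 36 genes. Such barcodes were 1110 of 1419 in the atrial, 699 of 1077 in the fibroblast and 286 of 688 in the vascular endothelial class. The lower percentage in vascular endothelium therefore stands beside a smaller base and does not by itself set that class apart.

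The genes differed widely in this respect. In ventricular barcodes 17.5% of Rrm2 counts (14.3 to 21.0) lay in barcodes with 0 mitosis counts, and its level was 31.4 times higher in mitosis-positive ones (24.9 to 39.99; 37.5 and 25.4 by replicate). Tk1 stood at 36.8% (ratio 11.3), Uhrf1 at 36.9% (9.77) and Rrm1 at 41.3% (9.13). On fewer counts, Ccne1, Mcm10 and Cdc45 lay between 25% and 34.5% (12 to 29 counts each) and Prim1 at 40% (50 counts, ratio 7.04). At the other end stood Rfc2 with 73.2% (ratio 1.69), Slbp with 74.7% (1.30, interval 0.852 to 1.93) and Mcm4 with 78.4% (0.968, interval 0.465 to 1.83). These values were close to the 77.4% of barcodes without mitosis counts, and for Slbp and Mcm4 the interval of the ratio includes 1.

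Rrm2 was also low in atrial (16.7%), fibroblast (24.1%) and vascular endothelial barcodes (3.57%) without mitosis counts. Tk1 stood at 45% in atrial barcodes, 3.57% in fibroblasts and 4.90% in vascular endothelium. Slbp stood at 68.1%, 54.5% and 33.5% in the same classes. Barcodes with 0 mitosis counts were a smaller part of vascular endothelium than of the other classes, so these percentages share no common base. As levels in mitosis-positive over mitosis-0 barcodes, Slbp stood at 1.56, 1.72 and 1.49 in the same order. Rrm2 stood at 35.6, 8.79 and 23.8, and Tk1 at 8.28, 72.6 (on 3 fibroblast counts without mitosis counts) and 16.3.

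**Figure D5:**
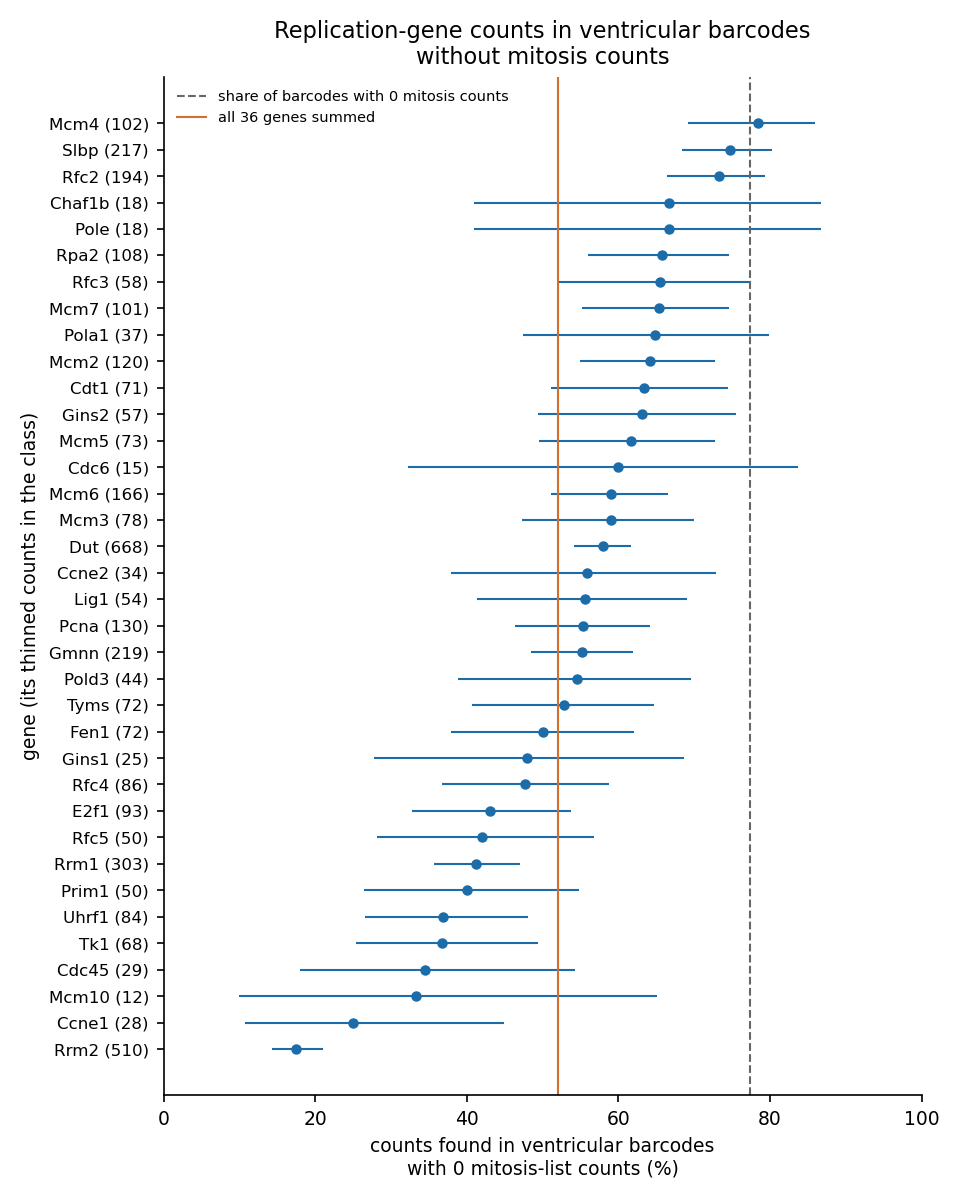
Percent of each gene's thinned ventricular counts that lay in barcodes with 0 mitosis-list counts, with the gene's count in brackets and 95% Clopper-Pearson intervals for counting error. The dashed line is the share of ventricular barcodes with 0 mitosis counts (77.4%) and the orange line the share for all 36 genes summed (52.0%). Rrm2 lies at 17.5% and Slbp, Rfc2 and Mcm4 lie near the dashed line.

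The genes were also set against each other within the ventricular class. Barcodes with an E2f1 count held 4.50 counts of the other 35 genes on average and those without held 0.932, a ratio of 4.83. Ratios of 4.63 to 5.01 were found for Cdc6, Mcm10, Prim1, Ccne2, Ccne1, Lig1 and Uhrf1, on 12 to 76 barcodes with the gene, and 4.38 for Rrm2 on 298. Low ratios were found for Rfc3 (1.76; 1.93 and 1.62 by replicate, 57 barcodes), Slbp (1.81; 2.001 and 1.52, 211 barcodes) and Rfc2 (1.82; 1.81 and 1.83, 191 barcodes). Pola1 stood at 1.68 on 37 barcodes, but at 1.96 and 0.949 by replicate, so its place among these is not settled. In atrial barcodes Rfc2 stood at 1.96 (2.05 and 1.86, 107 barcodes) and Uhrf1 at 5.90 (5.28 and 6.86, 28 barcodes). Atrial ratios were also low for Rfc5 (1.96), Tyms (1.99), Slbp (2.06) and Fen1 (2.06), while Rfc3 stood at 2.28 (3.41 and 1.11). In vascular endothelium Rfc2 was again low (1.37), but Rfc3 (1.94), Slbp (1.91) and Uhrf1 (1.83) lay close together. The ventricular order was thus not kept in full in these classes.

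A further 61 replication genes gave a similar picture between ventricular and atrial barcodes. On all counts 0 of 54 were higher (3.93% of all genes) and 9 lower (21.2%), with a median ratio of 0.740, and on nuclear counts 2 of 57 were higher (7.59%) and 1 lower (10.1%). Those past the rule on nuclear counts were Rb1, the E2F-binding repressor (1.74; 1.99 and 1.51), Ung, the uracil glycosylase (1.72; 1.80 and 1.65), and E2f8, a repressive E2F factor (0.462; 0.424 and 0.496). On nuclear counts 27 of 59 were lower (30% of all genes) and 3 higher (24.6%) against fibroblasts, and 37 of 57 were lower (28.6%) and 3 higher (24.4%) against vascular endothelium. Of the 25 mitosis genes 1 was lower on all counts (Kif23, 0.489; 21.2% of all genes) and 0 were higher (3.93%), and 0 passed the rule on nuclear counts (7.59% higher and 10.1% lower). The mitosis list summed to 0.944 times the atrial level on all counts and 1.24 times on nuclear counts.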

How the data were processed

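The deposited tables hold raw counts per gene and barcode, made with Cell Ranger 2.1.0 on mm10 per the submitters' processing notes. Whether a count is a molecule or a read was not given in the sources used here. Gene identifiers were matched to GENCODE vM21 symbols (27645 of 27999). Both records give 1 internal identifier while the second table carries another in its column names, so each table was used under the record it was deposited with. No other per-sample column was left unused (0). The 2 libraries held 34668956 and 33871582 counts. Barcodes were kept with at least 500 genes, haemoglobin under 0.5% and 2000 counts (123 were shallower). Classes were gated on summed marker counts, with thresholds set after the sums were seen. No doublet caller was run, and 353 barcodes passing conflicting gates were left out. Between both libraries 53 barcode sequences were shared. Levels are summed counts per 1000000 counts (CPM) after thinning to 2000 counts (seed 1). Intervals are exact Poisson for levels, Clopper-Pearson for shares and conditional binomial for ratios. With 1 biological sample no test was run. A level of 0 is bounded by 3 counts. The comparison code was tested on simulated data. All 36 genes are named, and of the other 61 replication and 25 mitosis genes at most the 5 highest and 5 lowest ventricular over atrial ratios. Genes and lists were chosen with earlier results of these data known. Promoters came from RefSeq. The versions were matplotlib 3.10.9 for figures, scipy 1.17.1 for intervals, and numpy 2.4.6 with pandas 2.3.3 under Python 3.11.15. Alternatives to the depth, filters, gates, scale and size rule were run, and the mitochondrial bands were chosen after the data were seen.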

Additional observations from a re-analysis of the deposited data

Results flagged for a closer look

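Counts of the 36 genes were also present in barcodes that entered no comparison. The 2625 barcodes with haemoglobin at or above 0.5% of counts held 772 CPM. The 11 barcodes with T or NK cell markers held 2545 CPM (1923 to 3305), the 353 barcodes passing conflicting gates 1178 CPM, and the 107 barcodes passing no gate 1537 CPM. Each value lies above the level that a count of 0 allows, and none was compared with a control.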

How the results depend on the processing

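Stricter gates, a minimum of 1000 genes and leaving out barcodes found in both libraries moved none of 27 results, and a minimum of 5 counts in the size rule none of 4. Apart from the nuclear scale, the share of all genes past the size rule was not computed in the settings below. Their counts of genes lower or higher therefore cannot be read against such a share.
Without thinning the summed CPM was 551 in ventricular, 670.3 in atrial, 1349 in fibroblast, 1489.9 in smooth muscle, 2025 in pericyte and 1870.0 in macrophage barcodes, and ventricular ratios were 0.408 to fibroblasts, 0.272 to pericytes and 0.2945 to macrophages.
On nuclear counts the sum was 861 in ventricular, 821 in atrial, 1629 in vascular endothelial and 1882 in pericyte barcodes. The ventricular over atrial ratio turned to 1.05 and the ratio to endocardium to 1.23, and the others were 0.697 (fibroblast), 0.528 (vascular endothelial), 0.632 (smooth muscle), 0.457 (pericyte) and 0.582 (macrophage). Genes lower numbered 2 against atrial and 16 against fibroblast barcodes, shares with 3 counts were 18.1% and 17.9% in ventricular and atrial barcodes, and the ventricular mitosis ratio was 4.33.
At 3000 counts sums were 1258 (fibroblast), 1428 (smooth muscle), 2008 (pericyte) and 1863 (macrophage), ratios 0.405, 0.357, 0.254 and 0.273 in the same order, shares 15.95% (ventricular), 19.7% (atrial), 41.6% (fibroblast) and 58.0% (vascular endothelial), genes lower against atrial 8 and the fibroblast mitosis ratio 3.18. A second random draw gave 8 genes lower against atrial and a ratio of 0.314 to vascular endothelium. A 2-fold rule left 1 lower and 0 higher.
Without barcodes over 20% mitochondrial counts (416 ventricular and 589 atrial left) sums were 690 and 561, and their ratio turned to 1.23. By technical replicate the sums were 793 and 578 against 570 and 550, and the median mitochondrial shares left were 5.12% and 15.3%. In this setting 2 genes were lower and 2 higher, and Rfc2 (1.26) and Tk1 (1.249) turned. Ratios were 0.577 (fibroblast, 18 genes lower), 0.442 (vascular endothelial), 0.939 (endocardial), 0.531 (smooth muscle), 0.397 (pericyte) and 0.443 (macrophage), shares 14.7% and 10.2%, and mitosis ratios 3.56 and 2.99.
Without the haemoglobin limit the ventricular sum was 540.1, genes lower against atrial 2, the ratio to vascular endothelium 0.354 and the mitosis ratios 3.63 and 3.11 in ventricular and atrial barcodes.
Shares with 2 or 4 counts were 20.6% and 7.11% (ventricular), 25.02% and 8.53% (atrial), 43.7% and 21.1% (fibroblast) and 58.3% and 33.4% (vascular endothelial). With 3 mitosis counts the ventricular ratio was 5.25. Except where the construction shows it, the cause was not tested.
With 1 technical replicate at a time, agreement of both was no longer asked, and genes lower against atrial numbered 10 to 12 and higher 1 to 2. Those lower against fibroblast and against vascular endothelial barcodes numbered 28 to 28. How many of all genes would pass with 1 replicate was not computed, so these counts have no background beside them. Sums ran from 486 to 541 (ventricular), 607 to 613 (atrial), 1113 to 1259.5 (fibroblast), 1523 to 1579.8 (vascular endothelial), 732 to 735 (endocardial), 1226 to 1355 (smooth muscle), 1616 to 1889 (pericyte) and 1385 to 1704 (macrophage). Ratios ran from 0.793 to 0.892 (atrial), 0.430 to 0.437 (fibroblast), 0.319 to 0.343 (vascular endothelial), 0.661 to 0.740 (endocardial), 0.397 to 0.3996 (smooth muscle), 0.257 to 0.335 (pericyte) and 0.318 to 0.351 (macrophage). Shares ran from 9.51% to 12.3%, 12.1% to 13.4%, 26.3% to 30.6% and 43.4% to 44.7%, and mitosis ratios from 4.24 to 5.24, 3.45 to 3.98, 2.47 to 3.46 and 2.34 to 3.18, in ventricular, atrial, fibroblast and vascular endothelial barcodes. No paired analysis was possible because both libraries belong to 1 group. Depth limits genes with few counts in the smaller classes.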
